A study of Mus musculus with 2 samples.

Results

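Hybrid Myh1 and Myh2 nuclei are nuclei of skeletal muscle that hold transcripts of 2 fast myosin heavy chain genes at once. They were chosen by their counts of unique molecular identifiers (UMIs, each standing for 1 captured RNA molecule): 10 or more UMIs summed over Myh1, Myh2, Myh4 and Myh7, with Myh1 and Myh2 each at 20% or more of that sum and Myh4 under 20%. The rule found 285 hybrid nuclei among 16530, of which 256 were among the 9156 nuclei of plantaris and 29 among the 7374 of gastrocnemius. They are set against pure Myh2 and pure Myh1 nuclei, which passed the same minimum and took 80% or more of these UMIs from one gene (186 and 413 nuclei in plantaris, 72 and 76 in gastrocnemius). All nuclei came from wild-type C57BL/6 mice aged 12 weeks, with 1 single-nucleus RNA sequencing library for plantaris and 1 for gastrocnemius, both calf muscles. Whether a library pools several mice is not given in the sources used here, and the labels name no treatment. The design therefore has no replicates. Intervals in parentheses are at 95% and cover counting error only, and no test was run between groups of nuclei or between muscles.

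A muscle fibre is a long cell with many nuclei, and its speed and fuel use follow the myosin heavy chain it makes. Myh7 encodes the slow chain of type 1 fibres, Myh2 the chain of type 2A fibres, which are fast and rich in mitochondria, Myh1 that of type 2X fibres, and Myh4 that of type 2B fibres, which are fast and glycolytic. Fibres that contain a pair of neighbouring types are known as hybrid fibres, and they are found in healthy muscle and in muscle whose fibres are changing type. A nucleus can show 2 chains because it transcribes both, and a droplet that captured a pair of nuclei shows both as well.

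Myh2, Myh1 and Myh4 lie one after another on the plus strand of mouse chromosome 11 (build mm10, positions 67171027 to 67197517, 67200052 to 67224575 and 67238029 to 67260446), whereas Myh7 lies on chromosome 14 (54970684 to 54994626). The promoters of the pair that defines the hybrid nuclei are shown because their transcripts set the groups of nuclei. The sequences are RefSeq's on GRCm38.p6, plus strand, from 250 bases before to 50 bases after the annotated start, at chr11:67170777-67171076 for Myh2 and chr11:67199852-67200151 for Myh1. Capitals mark the longest stretch the promoters share, 21 bases (AATATTTCTAATTATATCCAA), and the TATA motif TATAAAA.
Myh2: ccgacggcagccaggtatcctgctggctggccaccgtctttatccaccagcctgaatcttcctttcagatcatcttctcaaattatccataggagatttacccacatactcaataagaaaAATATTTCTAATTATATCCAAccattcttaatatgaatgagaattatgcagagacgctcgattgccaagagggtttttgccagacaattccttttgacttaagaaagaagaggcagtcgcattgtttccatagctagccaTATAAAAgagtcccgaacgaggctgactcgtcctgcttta
Myh1: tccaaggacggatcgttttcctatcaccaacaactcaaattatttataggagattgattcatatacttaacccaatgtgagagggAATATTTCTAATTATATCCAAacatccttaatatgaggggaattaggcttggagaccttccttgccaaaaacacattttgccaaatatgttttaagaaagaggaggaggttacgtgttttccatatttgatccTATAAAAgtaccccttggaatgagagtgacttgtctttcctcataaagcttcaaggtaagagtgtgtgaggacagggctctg
The shared stretch began 130 bases before the annotated start in Myh2 and 165 bases before it in Myh1. TATAAAA, searched on both strands, stood at position 11 after the annotated start of Myh2 and 32 bases before that of Myh1, and 5.48% of 32851 promoters of this length held it. The MEF2 motif matched once in Myh1, 211 bases before the start, and not in Myh2, against 3.19% of promoters. CATTCC, a core that TEAD factors bind, was found on the minus strand of Myh1 alone (14.7% of promoters), and the E-box CANNTG in neither (72.3%). These are matches of letters in a window, and binding was not measured.

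The libraries held 29248275 UMIs in plantaris and 19048595 in gastrocnemius, with medians of 2714 and 2260 UMIs per nucleus. The hybrid nuclei supplied 1051379 UMIs in plantaris and 101058 in gastrocnemius, so values of gastrocnemius hybrid nuclei rest on fewer counts throughout. The libraries shared 17 barcodes, and 1 hybrid nucleus carried a shared one. Each of the 285 hybrid nuclei held 2 or more UMIs of the myonuclear genes Ttn, Neb, Ckm and Ryr1. These genes made up 47456, 47809 and 49656 CPM (counts per 1000000 UMIs of the group's own total) in plantaris hybrid, pure Myh2 and pure Myh1 nuclei, and 50753, 49884 and 55077 CPM in gastrocnemius. The name myonuclei thus holds for the hybrid nuclei by these markers. Summed over 29 markers of other cell types, the levels in the same order were 504, 420 and 500 CPM in plantaris and 336, 504 and 364 CPM in gastrocnemius. The pericyte and smooth muscle list supplied most of it, at 304, 310 and 342 CPM in plantaris, and the adipocyte markers Adipoq, Plin1 and Cidec were at 0 in every group, which in hybrid nuclei allows up to 2.85 CPM in plantaris and 29.7 CPM in gastrocnemius.

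Hybrid nuclei were more frequent in plantaris. They made up 5.77% (5.10 to 6.50) of 4437 plantaris nuclei with 10 or more Myh UMIs, against 0.795% (0.533 to 1.14) of 3649 in gastrocnemius. Most nuclei that passed that minimum carried Myh4, so the share was also taken over those with Myh4 under 20%, where it was 29.0% (26.0 to 32.1) of 882 in plantaris and 14.3% (9.78 to 19.9) of 203 in gastrocnemius. Among these nuclei, the ones with Myh2 at 20% or more were hybrid in 54.5% (49.8 to 59.0) of 470 cases in plantaris and 25.4% (17.7 to 34.4) of 114 in gastrocnemius. Of those with Myh1 at 20% or more, 38.4% (34.7 to 42.2) of 667 were hybrid in plantaris and 27.9% (19.5 to 37.5) of 104 in gastrocnemius. With a minimum of 20 Myh UMIs in place of 10, the hybrid nuclei numbered 98 in plantaris and 13 in gastrocnemius, and with 30% or more of each gene 145 and 13.

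The balance of Myh1 and Myh2 was uneven. By the Myh2 share of their Myh UMIs, the Myh4-low nuclei of plantaris numbered 412 below 20%, 34 from 20 to 40%, 71 from 40 to 60%, 181 from 60 to 80% and 184 above. Those of gastrocnemius numbered 89, 7, 7, 29 and 71 over the same bins. The bins from 20 to 80% also hold nuclei with Myh1 under 20%, which are not hybrid. The hybrid nuclei alone numbered 34, 71 and 151 over these 3 bins in plantaris, and 7, 7 and 15 in gastrocnemius. The pure Myh1 nuclei formed a peak apart from the rest, whereas the hybrid nuclei ran on into the pure Myh2 nuclei. The nuclei at the edge of the rule show the same: with Myh1 just outside it (15 to 20%) there were 63 nuclei in plantaris and just inside it (20 to 25%) 45, against 3 and 5 nuclei at the corresponding edge of Myh2. In gastrocnemius these numbers were 13 and 9 for Myh1, and 0 and 0 for Myh2. The median hybrid nucleus held 17 Myh UMIs in plantaris and 19 in gastrocnemius, so a share near 20% rests on a few UMIs. How many nuclei crossed the edge by counting error was not tested.

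**Figure D1:**
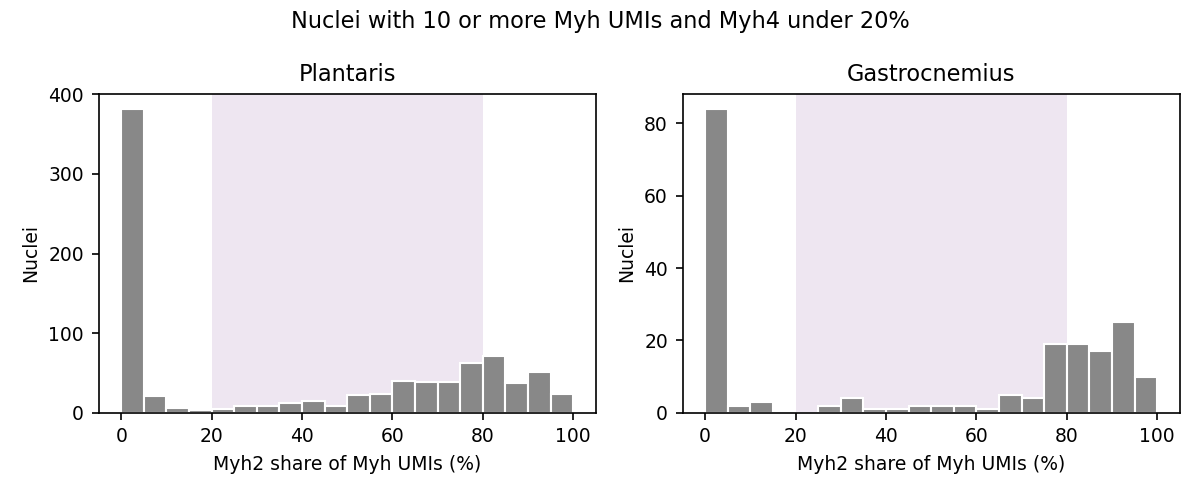
Number of nuclei (vertical axis) by the Myh2 share of their Myh UMIs in percent (horizontal axis, bins of 5), for nuclei with 10 or more Myh UMIs and Myh4 under 20%, with the range from 20 to 80% shaded. Pure Myh1 nuclei stand apart at the left, and the shaded range joins the pure Myh2 nuclei at the right without a gap. The shaded range also holds nuclei with Myh1 under 20%, which are not hybrid.

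Summed over the hybrid nuclei, Myh2 outweighed Myh1. In plantaris, 59.6% (58.3 to 61.0) of 5015 Myh UMIs were Myh2, 37.2% (35.8 to 38.5) Myh1 and 3.19% Myh4. In gastrocnemius, 56.1% of 599 Myh UMIs were Myh2, 40.1% Myh1 and 3.84% Myh4. Myh7 was at 0 UMIs in the hybrid nuclei of both muscles, which allows a share of up to 0.0598% in plantaris and 0.501% in gastrocnemius. Pure Myh2 nuclei still held 10.1% Myh1 in plantaris and 6.39% in gastrocnemius, whereas pure Myh1 nuclei held 0.614% and 0.559% Myh2. These compositions follow from the rule and are given as a description. The sum of the 4 genes in hybrid nuclei was close to that of the pure ones: 4770 CPM against 5197 in pure Myh2 and 4453 in pure Myh1 nuclei of plantaris, and 5927 against 5872 and 5787 CPM in gastrocnemius.

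Transcripts released during preparation give UMIs in nuclei that do not make them, and in these muscles most of that free Myh RNA was Myh4. In 944 plantaris and 609 gastrocnemius nuclei with markers of other cell types and few myonuclear UMIs, there were 0.198 Myh1 UMIs for each Myh4 UMI in plantaris and 0.0264 in gastrocnemius. Hybrid nuclei held 11.7 Myh1 UMIs per Myh4 UMI in plantaris and 10.4 in gastrocnemius, a ratio that the rule bounds from below, and pure Myh2 nuclei 4.22 and 1.45. Those background nuclei, chosen to have under 10 Myh UMIs, averaged 1.01 each in plantaris and 1.19 in gastrocnemius. The part of free RNA in the Myh1 and Myh2 of hybrid nuclei was not tested. Myhas is annotated antisense and runs from within Myh1 to just before Myh4 (chromosome 11, 67211256 to 67237573). It gave 30 UMIs (28.5 CPM) in hybrid, 10 (13.9) in pure Myh2 and 92 (52.4) in pure Myh1 nuclei of plantaris. In gastrocnemius these counts were 4, 7 and 11 UMIs. Myhas overlaps Myh1 from 67211256 to 67224575. The strand setting of the counting is not given in the sources used here, so reads of the pair cannot be told apart.

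UMI totals bear on whether hybrid nuclei are pairs of nuclei caught in 1 droplet, since a pair would carry the RNA of both. In plantaris, the median hybrid nucleus held 3551.5 UMIs (quartiles 2844 and 5004), against 3731.5 in pure Myh2 and 3943 in pure Myh1 nuclei, so its median was 0.952 and 0.901 times theirs. The sum of the pure medians was 7674.5 UMIs, and the hybrid median was 0.463 of it. In gastrocnemius, the hybrid median was 3419 UMIs, against 3302.5 in pure Myh2 and 3148 in pure Myh1 nuclei, and 0.530 of their sum of 6450.5. In neither muscle was the hybrid median near the sum of the pure medians. Pure nuclei each passed the minimum of Myh UMIs alone, whereas a pair of smaller nuclei could pass it together. The median nucleus of the whole library held 2714 UMIs in plantaris and 2260 in gastrocnemius. A pair therefore need not reach the sum of the pure medians, and these totals cannot decide whether hybrid nuclei are pairs. Genes detected per nucleus had medians of 1519, 1518 and 1566 in hybrid, pure Myh2 and pure Myh1 nuclei of plantaris. In gastrocnemius these medians were 1389, 1453.5 and 1325.5.

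A minority of hybrid nuclei did reach the summed size. Above the sum of the pure medians lay 16 of 256 plantaris hybrid nuclei (6.25%, 3.61 to 9.95), against 27 of 599 pure nuclei (4.51%, 2.99 to 6.49), and 1 of 29 in gastrocnemius (3.45%, 0.0873 to 17.8), against 3 of 148 (2.03%, 0.420 to 5.81). The highest total in plantaris was 13871 UMIs among hybrid nuclei, and 10117 and 13283 among pure Myh2 and pure Myh1 nuclei. The intervals of these shares overlap in both muscles. The doublet caller scrublet marked 2 nuclei in each library and was judged not to have worked, so its scores of likeness to simulated doublets are given as values alone. They had medians of 0.0256, 0.0243 and 0.0441 in hybrid, pure Myh2 and pure Myh1 nuclei of plantaris, and of 0.0218, 0.0268 and 0.0224 in gastrocnemius.

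**Figure D2:**
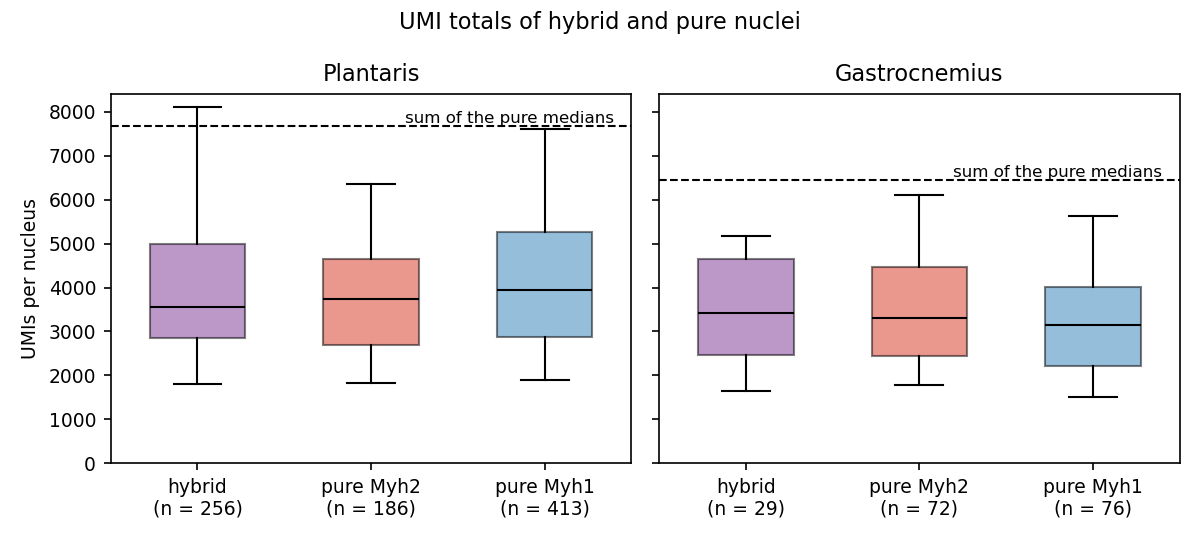
UMIs per nucleus (vertical axis) in hybrid, pure Myh2 and pure Myh1 nuclei of each muscle; boxes give quartiles and median, whiskers the 5th and 95th percentiles, and the dashed line the sum of the pure medians. Hybrid boxes lie level with the pure ones and below the dashed line, which is at 7674.5 UMIs in plantaris and 6450.5 in gastrocnemius.

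The other pairs of genes give a measure of how often any 2 kinds of nuclei appear mixed. By the same rule, 227 plantaris nuclei mixed Myh1 with Myh4 and 65 mixed Myh2 with Myh4, although pure Myh4 nuclei numbered 3233. Per 10000 possible pairs of pure nuclei, Myh1 and Myh2 were mixed in 33.3 nuclei (29.4 to 37.7), against 1.70 (1.49 to 1.94) for Myh1 with Myh4 and 1.08 (0.834 to 1.38) for Myh2 with Myh4. In gastrocnemius, 29 mixed nuclei gave 53.0 (35.5 to 76.1) per 10000 pairs, against 1.01 (0.660 to 1.48) and 0.985 (0.631 to 1.47) for the same pairs. The mixed and pure nuclei behind these rates are the ones the rule chose, so the rates are a description. Nuclei of the other pairs also held more UMIs, with medians of 4731 for Myh1 with Myh4 and 5416 for Myh2 with Myh4 in plantaris, and 3556 and 4962 in gastrocnemius. How many hybrid nuclei are doublets was not tested.

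Whether the rest of the transcriptome of hybrid nuclei lies between the pure groups was read from genes other than the Myh genes. Among all genes, 1.76% of 6656 were 2-fold or more higher and 6.51% lower in pure Myh2 than in pure Myh1 nuclei of plantaris, and 6.78% of 2374 higher and 4.09% lower in gastrocnemius. Genes that differed 4-fold or more between pure Myh2 and pure Myh1 nuclei, with 20 or more UMIs in the higher group, were chosen in one muscle and read in the other. The position of hybrid nuclei is 0 at the CPM of pure Myh1 and 1 at that of pure Myh2 nuclei. In plantaris, hybrid nuclei resembled pure Myh2 nuclei: of 46 genes chosen in gastrocnemius, 42 differed in the same direction, and their median position was 0.976 (quartiles 0.735 and 1.16). Of these 42, 22 lay between the pure groups, 18 beyond pure Myh2 and 2 below pure Myh1, and 39 were nearer to pure Myh2. Near the Myh1 edge of the rule a few UMIs part hybrid from pure Myh2 nuclei. The part of this likeness that follows from the rule was not tested. The positions of Myh2 and Myh1 themselves, which the rule fixes, were 0.624 and 0.663. The median position of the other genes ran from 0.663 with genes chosen in plantaris itself to 1.21 with a minimum of 30 Myh UMIs.

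Genes higher in pure Myh2 nuclei stood in plantaris hybrid nuclei at the level of pure Myh2. Their sum over 32 genes was 4461 CPM in hybrid, 4427 in pure Myh2 and 1714 in pure Myh1 nuclei, a position of 1.01 (0.966 to 1.06, from the counts of the hybrid nuclei). The 14 genes lower in pure Myh2 nuclei summed to 2726, 2377 and 5417 CPM, a position of 0.885 (0.852 to 0.918). Plantaris hybrid nuclei thus matched pure Myh2 nuclei in the first set and kept a small excess over them in the second.

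In gastrocnemius, the same sums put hybrid nuclei further towards the middle. The 22 genes higher in pure Myh2, chosen in plantaris, summed to 3810 CPM in hybrid, 5606 in pure Myh2 and 1452 in pure Myh1 nuclei, a position of 0.568 (0.478 to 0.664). That value was 0.318 with a minimum of 20 Myh UMIs (13 hybrid nuclei), 0.237 with a minimum of 30 (5 nuclei), and 0.0961 with hybrid nuclei at 30% or more of each gene and pure nuclei at 90% or more. The 96 genes lower in pure Myh2 summed to 3186, 2013 and 6523 CPM, a position of 0.740 (0.658 to 0.815). Most of the lower genes rested on few counts: of the 55 that kept their direction, 28 were at 0 UMIs in the hybrid nuclei and 45 at 3 or fewer. Their median position of 1.0 follows from those counts. Mylk4 alone gave 163 of the 322 hybrid UMIs of the lower sum and 1039 of the 1613 in pure Myh1 nuclei. Its own position was 0.764. In the higher sum, Gm28653, Myoz2, Sox2ot and Ankrd2 gave 287, 254, 223 and 221 of the 1434 pure Myh2 UMIs. Their positions were 0.631, 0.612, 0.256 and -1.12. The median of the 20 higher genes was 0.626. Whether the muscles differ in this position was not tested, and the genes read in them are not the same.

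**Figure D3:**
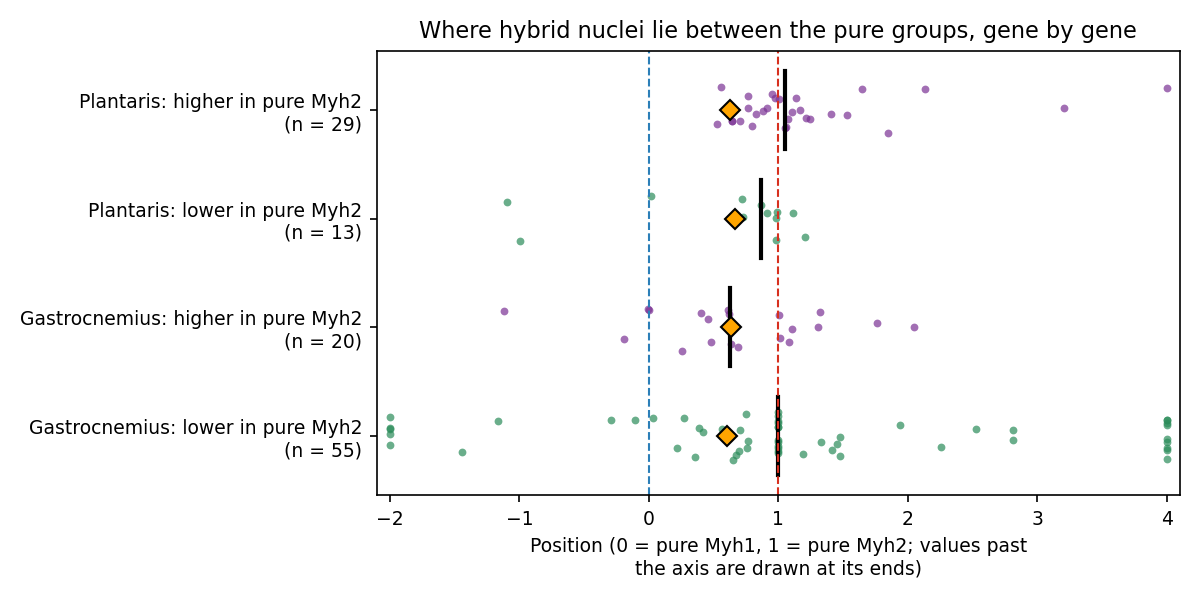
Position of hybrid nuclei (horizontal axis, 0 at pure Myh1 and 1 at pure Myh2, dashed lines) for each gene, 1 point per gene, in 4 rows by muscle and by the direction in pure Myh2 nuclei; bars are medians and diamonds the positions of Myh2 (higher rows) and Myh1 (lower rows), which the rule fixes. Plantaris points crowd around 1, with medians of 1.05 and 0.863, whereas gastrocnemius points spread widely, and positions past the axis are drawn at its ends.

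Within the plantaris hybrid nuclei, position went with the share of Myh2. In the 34 nuclei with 20 to 40% Myh2, the higher genes stood at 0.548 (0.447 to 0.657) and the lower genes at 0.697 (0.598 to 0.789). In the 71 nuclei with 40 to 60% they stood at 1.15 (1.06 to 1.25) and 0.845 (0.779 to 0.907), and in the 151 nuclei with 60 to 80% at 1.06 (1.0 to 1.13) and 0.953 (0.910 to 0.994). The Myh2 gene itself stood at 0.310, 0.518 and 0.755 in these bins. For the higher genes, hybrid nuclei with mostly Myh1 lay between the pure groups and those with more Myh2 at or above pure Myh2, while the lower genes lay between the pure groups in all 3 bins. Median UMI totals were 4039, 3522 and 3508 over the same bins. In gastrocnemius the bins held 7, 7 and 15 nuclei, and the higher genes stood at 0.0871, 0.162 and 1.01 and the lower genes at 0.452, 0.546 and 0.987.

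A summed level cannot tell nuclei that each lie in the middle from a mixture of the pure kinds, so the same genes were scored in each nucleus. The score is the percent of a nucleus's UMIs over these genes that came from those higher in pure Myh2. Its median in plantaris was 63.0% in 252 hybrid nuclei with enough UMIs to score (5 or more), 62.5% in 186 pure Myh2 and 20.8% in 410 pure Myh1 nuclei. The nuclei varied widely within each group, with standard deviations of 22.1, 22.0 and 17.1 percentage points. Above the midpoint of the pure medians, 41.7%, lay 79.0% (73.4 to 83.8) of hybrid, 78.0% (71.3 to 83.7) of pure Myh2 and 17.1% (13.6 to 21.1) of pure Myh1 nuclei. The score of plantaris hybrid nuclei was thus spread like that of pure Myh2 nuclei.

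Gastrocnemius hybrid nuclei were spread more evenly. Their median score was 50% over 29 nuclei (SD 28.6 percentage points), against 75% over 71 pure Myh2 and 12.5% over 75 pure Myh1 nuclei. With hybrid nuclei at 30% or more of each gene and pure nuclei at 90% or more, the hybrid median was 26.3%. The genes were then chosen anew and pure nuclei were not scored, so that value is not on the scale of the others. By the main rule, above the midpoint of 43.75% lay 58.6% (38.9 to 76.5) of hybrid, 83.1% (72.3 to 91.0) of pure Myh2 and 14.7% (7.56 to 24.7) of pure Myh1 nuclei. UMIs of both kinds of gene were found together in 97.3% of hybrid, 98.9% of pure Myh2 and 95.4% of pure Myh1 nuclei of plantaris, and in 93.1%, 95.8% and 78.9% of those of gastrocnemius. Holding both was therefore not particular to hybrid nuclei.

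**Figure D4:**
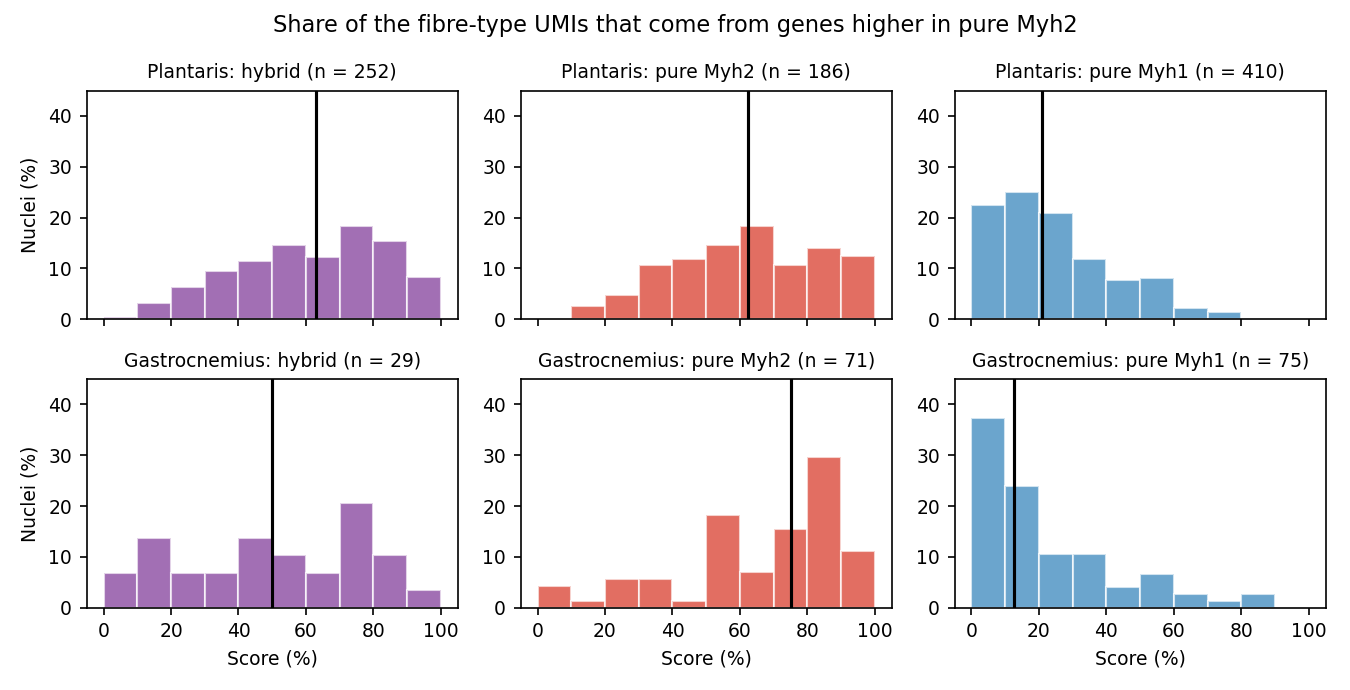
Percent of nuclei (vertical axis) by score (horizontal axis, percent of UMIs over the fibre-type genes that come from genes higher in pure Myh2), for hybrid, pure Myh2 and pure Myh1 nuclei of each muscle; vertical lines are medians. The plantaris hybrid panel resembles the pure Myh2 panel (medians 63.0 and 62.5%), and the gastrocnemius hybrid panel has a flat spread around 50%.

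The genes that separate pure Myh2 from pure Myh1 nuclei most in both muscles show which functions hybrid nuclei share with each. Of the 12 named as higher in pure Myh2, Myoz2 had the highest level in plantaris. It encodes a calsarcin, a Z-disc protein of slow and oxidative fibres that binds calcineurin (chromosome 3, 123006206 to 123035015). It stood at 441 CPM (402 to 483) in hybrid, 453 (405 to 505) in pure Myh2 and 35.9 (27.6 to 45.9) in pure Myh1 nuclei of plantaris, and at 633, 993 and 64.7 CPM in gastrocnemius. Hybrid nuclei were thus at the pure Myh2 level in plantaris (log2 ratio -0.04, -0.25 to 0.17) and between the groups in gastrocnemius (-0.65, -1.07 to -0.25).

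The 12 also held Idh2, Ldhb and Esrrb, genes of oxidative muscle. Idh2, the mitochondrial NADP-dependent isocitrate dehydrogenase (chromosome 7, 80094846 to 80115392), stood at 327, 314 and 79.2 CPM in hybrid, pure Myh2 and pure Myh1 nuclei of plantaris and at 317, 356 and 76.8 CPM in gastrocnemius. Ldhb, the lactate dehydrogenase subunit typical of heart and oxidative muscle (chromosome 6, 142490249 to 142507957), stood at 166 (143 to 193), 119 (95.3 to 147) and 29.6 CPM in plantaris and at 109, 199 and 24.3 CPM in gastrocnemius. Esrrb, an orphan nuclear receptor (chromosome 12, 86361117 to 86521628), stood at 166, 173 and 42.2 CPM in plantaris and at 188, 188 and 40.4 CPM in gastrocnemius. For Idh2 and Esrrb the hybrid and pure Myh2 intervals overlap in both muscles, while Ldhb was higher in hybrid than in pure Myh2 nuclei of plantaris (log2 ratio 0.48, 0.10 to 0.87) and not in gastrocnemius (-0.87, -1.96 to 0.09).

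The long noncoding RNAs Sox2ot, Gm28653, Rmst and Gm5427 were also among the 12. Sox2ot, the transcript that overlaps Sox2 (chromosome 3, 34104270 to 34682619), stood below pure Myh2 in the hybrid nuclei of both muscles, at 176 CPM in hybrid, 241 in pure Myh2 and 24.5 in pure Myh1 nuclei of plantaris and at 247, 872 and 32.4 CPM in gastrocnemius. Gm28653 stood at 182, 152 and 15.96 CPM in hybrid, pure Myh2 and pure Myh1 nuclei of plantaris and at 762, 1122 and 146 CPM in gastrocnemius. Rmst had positions of 1.01 in plantaris and 1.02 in gastrocnemius and Gm5427 of 0.764 and 0.455, the second on 4 hybrid UMIs. The remaining 4 were the antisense gene 4930511M06Rik (positions 1.17 and 1.76), Pcp4l1, a small relative of the calmodulin regulator Pcp4 (0.558 and 1.10), Nkain2, which encodes a partner of the sodium pump (0.879 in plantaris, and in gastrocnemius -0.01 on 2 hybrid UMIs), and Lrrc52, an accessory subunit of potassium channels (1.02 and 0.689). In plantaris, the 12 positions ran from 0.558 (Pcp4l1) to 1.53 (Ldhb).

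Among the genes named as lower in pure Myh2, some stood between the pure groups in plantaris hybrid nuclei and others at the pure Myh2 level. Mylk4, a kinase of the myosin light chain kinase family (chromosome 13, 32700834 to 32783954), stood at 464 CPM (424 to 507) in hybrid, 313 (274 to 357) in pure Myh2 and 1420 in pure Myh1 nuclei of plantaris, and at 1613, 813 and 4202 CPM in gastrocnemius. Mybpc2, the fast myosin-binding protein C (chromosome 7, 44501699 to 44524656), stood at 66.6, 42.9 and 315 CPM in plantaris and at 79.2, 35.2 and 178 CPM in gastrocnemius. Myom2, an M-band protein of fast fibres (chromosome 8, 15057653 to 15133541), stood at 49.5, 18.0 and 254 CPM in plantaris and at 327, 176 and 607 CPM in gastrocnemius. All 3 lay between the pure groups in both muscles and nearer to pure Myh2, at positions of 0.863, 0.913 and 0.866 in plantaris and 0.764, 0.692 and 0.650 in gastrocnemius. For Mybpc2 the gastrocnemius value rests on few counts, 8 UMIs in hybrid, 9 in pure Myh2 and 44 in pure Myh1 nuclei.

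Trp63, which encodes the transcription factor p63 (chromosome 16, 25683763 to 25892102), stood at 125, 121 and 437 CPM in hybrid, pure Myh2 and pure Myh1 nuclei of plantaris, a position of 0.987, and at 119, 66.5 and 437 CPM in gastrocnemius. Cd55, a regulator of complement, and Gpt2, the mitochondrial alanine aminotransferase, had plantaris positions of 0.981 and 0.911, and Asb4, a substrate adaptor of ubiquitin ligases, 0.616. In gastrocnemius these 3 had 1, 6 and 6 hybrid UMIs, and the log2 ratio of Cd55 and of Gpt2 to pure Myh1 and that of Asb4 to pure Myh2 turned sign when nuclei were thinned to 1000 UMIs. A count that thinning brings to 0 is set to 3 counts in ratios, which can by itself turn a sign. Nr4a3, an orphan nuclear receptor of the early response (chromosome 4, 48045153 to 48086447), had 204, 130 and 389 CPM in plantaris and 2, 0 and 30 UMIs in gastrocnemius.

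Kctd16, an auxiliary subunit of GABA-B receptors, Pde10a, a cyclic nucleotide phosphodiesterase, and Dlg2, a synaptic scaffold protein, were the named genes nearest to pure Myh1 in plantaris. Kctd16 stood at 179 CPM (154 to 206) in hybrid, 97.0 (75.6 to 123) in pure Myh2 and 264 (240 to 289) in pure Myh1 nuclei, Pde10a at 152 (130 to 178), 73.4 and 192 CPM, and Dlg2 at 72.3 (57.0 to 90.5), 30.5 and 82.1 CPM. Their plantaris positions were 0.509, 0.336 and 0.189. In gastrocnemius, Kctd16 stood at 0.426, while Pde10a and Dlg2 had 5 and 0 hybrid UMIs.

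Lama2, the laminin chain of the muscle basement membrane (chromosome 10, 26980036 to 27619758), stood at 288, 143 and 698 CPM in hybrid, pure Myh2 and pure Myh1 nuclei of plantaris, a log2 ratio of hybrid to pure Myh1 of -1.28 (-1.46 to -1.09). Myotendinous junction markers (Col22a1, Col24a1, Ankrd1, Tigd4) moved with it, at 38.0 (27.2 to 51.8), 22.2 and 176 CPM (157 to 197) in the same groups. With nuclei that held 2 or more UMIs of junction markers left out, the log2 ratio turned to 0.53. In gastrocnemius, Lama2 stood at 208, 78.2 and 279 CPM, and its log2 ratio to pure Myh2 of 1.41 turned to -1.08 without these nuclei and to -0.83 with a minimum of 20 Myh UMIs. Neuromuscular junction markers stood at 212, 222 and 247 CPM in plantaris and at 277, 504 and 231 CPM in gastrocnemius.

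**Figure D5:**
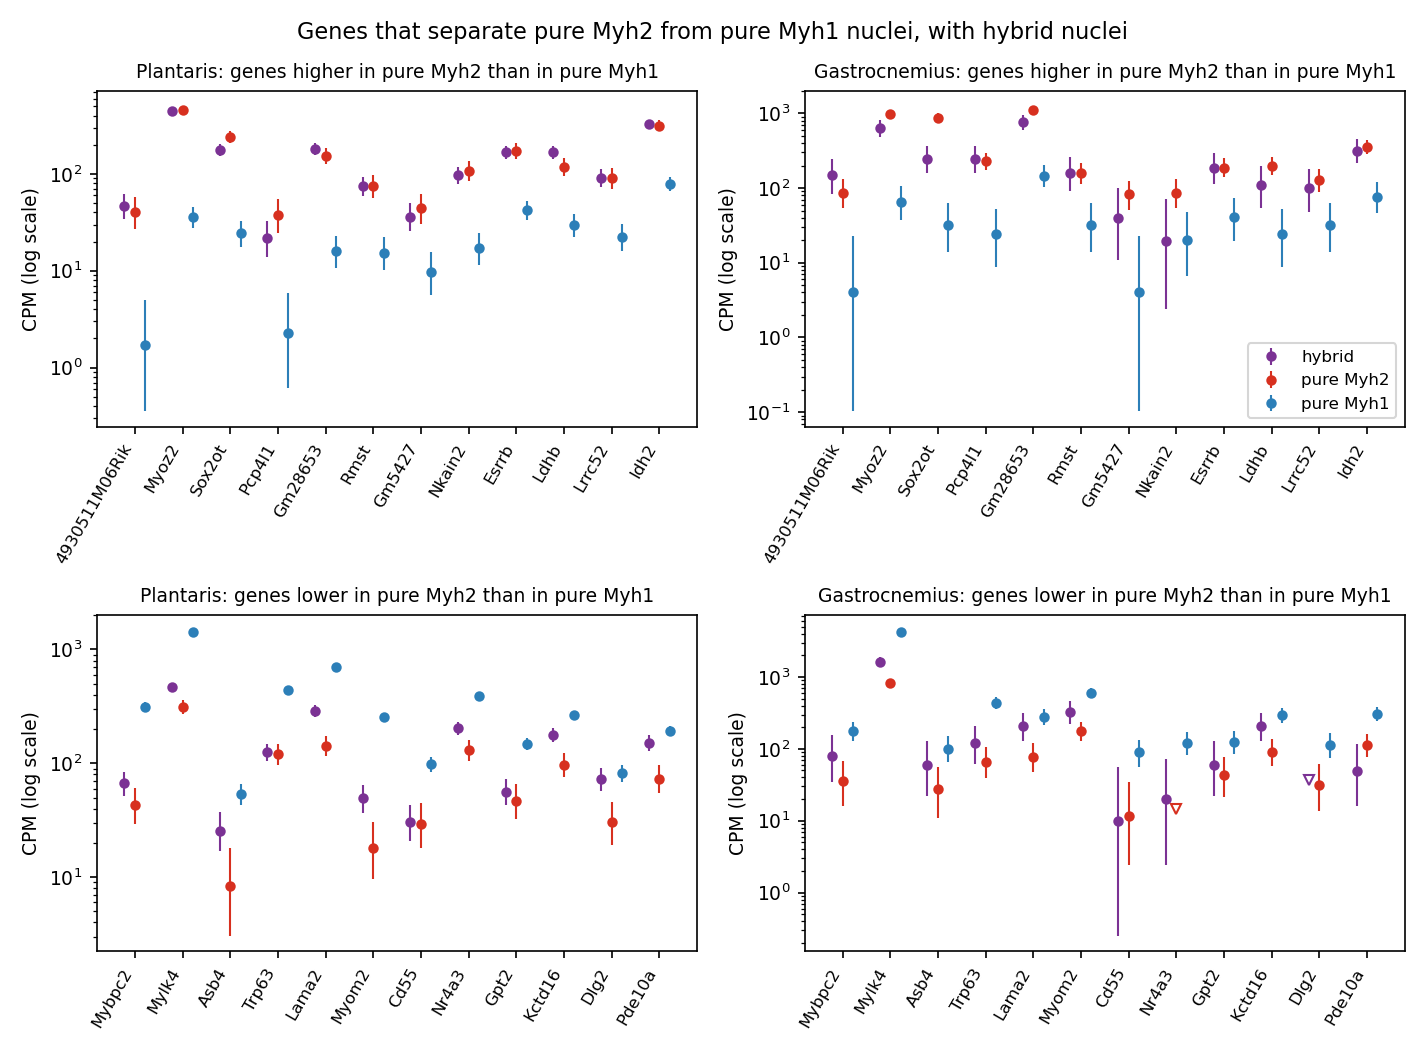
Level in CPM (vertical axis, log scale) of the 24 genes that separate pure Myh2 from pure Myh1 nuclei in both muscles, in hybrid (purple), pure Myh2 (red) and pure Myh1 nuclei (blue); bars are 95% counting intervals and open triangles the upper limit for a count of 0. In plantaris the hybrid points lie close to the pure Myh2 points for genes such as Myoz2 (441 and 453 CPM), and for Dlg2 and Pde10a they lie near the pure Myh1 points.

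Lists of muscle genes were read in the same way, and in plantaris the slow and fast sarcomere lists had median log2 ratios of pure Myh2 to pure Myh1 of 1.52 and -0.82, against 0.17 for the citrate cycle and respiratory chain and -0.09 for calcium handling. Among all genes, 2.62% of 6714 were 2-fold or more higher and 3.53% lower in hybrid than in pure Myh1 nuclei of plantaris, and 3.23% of 5395 higher and 0.408% lower than in pure Myh2 nuclei. Of 8 slow sarcomere genes with enough UMIs, 4 were 2-fold higher than in pure Myh1 nuclei (Myl2, Myoz2, Csrp3 and Ankrd2) and all 8 were above 0, with a median log2 ratio of 1.40, while over all genes the median was -0.002. Against pure Myh2 nuclei their median was -0.01, with none past 2-fold. Myl2, the slow regulatory light chain, gave 40, 25 and 2 UMIs in hybrid, pure Myh2 and pure Myh1 nuclei, and Csrp3, the muscle LIM protein, 54, 36 and 22.

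Of 10 fast sarcomere genes, 5 were 2-fold or more lower in plantaris hybrid than in pure Myh1 nuclei, with a median of -0.78. These were Mybpc2 (-2.24), Myom2 (-2.36), Actn3, the fast alpha-actinin (-1.26), Myoz1, the fast calsarcin (-1.14), and Mylpf, the fast regulatory light chain (-1.04). Against pure Myh2 nuclei the median was 0.09 and Myom2 (1.46) was the 1 gene past 2-fold. Mybpc2 lay above pure Myh2 by less, with a log2 ratio of 0.63 (0.003 to 1.29).

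Calcium-handling genes mostly did not separate the groups, with 2 of 17 higher and 1 lower by 2-fold against pure Myh1 and a median of -0.04. The 2 were Atp2a2, the slow and cardiac calcium pump (59.9, 42.9 and 19.4 CPM in hybrid, pure Myh2 and pure Myh1 nuclei), and Casq2, the slow calsequestrin (28.5, 26.3 and 10.3 CPM). The 1 lower was Pvalb, the parvalbumin that buffers calcium in fast fibres (37.1, 19.4 and 91.2 CPM). Ryr1, the calcium release channel, stood at 2451, 2507 and 2895 CPM and Atp2a1, the fast calcium pump, at 1400, 1351 and 1699 CPM.

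Oxidative regulators had a median of 0.22 against pure Myh1 over 13 genes, with Esrrb (1.98) the 1 past 2-fold and Ppara, the fatty acid receptor, at 0.98 (1840, 1780 and 931 CPM in hybrid, pure Myh2 and pure Myh1 nuclei). Fatty acid and ketone genes had a median of 0.19, with 17 of 20 above 0 and Bdh1, an enzyme of ketone body metabolism, at 3.97 (98.0, 83.1 and 6.27 CPM), and Pdk4, the kinase that blocks pyruvate oxidation, at -1.22 (301, 309 and 700 CPM). Against pure Myh2 the fatty acid list lay slightly lower, with a median of -0.19, 4 of 19 above 0 and none past 2-fold. The citrate cycle and respiratory chain had medians of 0.09 against pure Myh1, with Idh2 (2.05) the 1 of 21 past 2-fold, and 0.01 against pure Myh2. Glycolysis, glycogen and lactate genes had medians of -0.30 and -0.06, with Ldhb the 1 higher by 2-fold and Ldha, the glycolytic subunit, the 1 lower (21.9, 31.9 and 48.4 CPM).

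Regulators of fibre type had medians of -0.13 against pure Myh1 and -0.05 against pure Myh2. Maf, a large Maf factor, was the 1 gene past 2-fold, at 199, 229 and 398 CPM in hybrid, pure Myh2 and pure Myh1 nuclei of plantaris. Sox6, a repressor of slow genes, stood at 2475, 2381 and 3165 CPM. Of 4 genes of denervation and remodelling with enough UMIs, Runx1 was 2-fold lower than in pure Myh1 nuclei (7.61, 6.93 and 19.4 CPM in hybrid, pure Myh2 and pure Myh1 nuclei). Others gave few UMIs: the developmental chains Myh3 and Myh8 gave 0 and 0 UMIs in plantaris hybrid nuclei, 6 and 1 in pure Myh2 and 1 and 0 in pure Myh1 nuclei, and Myog, Chrna1 and Chrng gave 0 in hybrid nuclei of both muscles. Of the early response genes, 5 had enough UMIs against pure Myh1, with a median of -0.79, and Nr4a1 was 2-fold lower (210, 233 and 433 CPM).

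In gastrocnemius, where 2.51% of 1994 genes were 2-fold higher and 8.12% lower in hybrid than in pure Myh1 nuclei, and 1.11% of 2165 higher and 6.47% lower than in pure Myh2 nuclei, the lists rest on fewer genes. The fast sarcomere list had medians of -0.63 against pure Myh1 and 0.06 against pure Myh2 over 7 and 6 genes, with Mybpc2 past 2-fold lower against pure Myh1. The slow sarcomere list had medians of -0.25 over 4 genes and -0.40 over 5, with Myoz2 2-fold higher than in pure Myh1 and Myom3, an M-band protein of slower fibres, 2-fold lower than in pure Myh2 nuclei (168, 344 and 44.5 CPM). Fatty acid genes had medians of 0.32 and -0.07 over 16 genes each. Glycolytic genes had medians of -0.50 and 0.003 over 12 genes each, with Gpi1, Pfkm and Ldha 2-fold lower than in pure Myh1 nuclei. Among oxidative regulators, Esrra was 2-fold higher and Nrip1, a corepressor, 2-fold lower than in pure Myh1 nuclei, and Ppard was 2-fold lower than in pure Myh2 nuclei, on 20, 15 and 4 hybrid UMIs. Nr4a1 and Nr4a3, the 2 early response genes with enough UMIs, were both 2-fold lower than in pure Myh1 nuclei.

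No gene placed hybrid nuclei 2-fold or more outside both pure groups in both muscles. With 20 or more UMIs in the hybrid nuclei of each muscle, 0 of 898 genes were 2-fold or more above both pure groups in both muscles, and 123 were above both by any amount. Of 2371 genes, 0 were 2-fold or more below both, and 245 were below by any amount. Within 1 muscle, more genes lay outside by any amount. In plantaris 2022 of 5341 were above both and 1964 of 6656 below, and in gastrocnemius 373 of 898 and 822 of 2374. By the smallest of its ratios to the pure groups, the gene with the largest excess was the long noncoding RNA Gm13481 (chromosome 2, 48062548 to 48457245), at 255 (225 to 287), 148 (121 to 179) and 83.2 CPM in hybrid, pure Myh2 and pure Myh1 nuclei of plantaris and 277 (184 to 400), 180 (132 to 240) and 105 CPM in gastrocnemius. Exoc5, a subunit of the exocyst (chromosome 14, 49004090 to 49066653), was furthest below, at 37.1, 70.6 and 64.4 CPM and 49.5, 86.0 and 93.0 CPM. The gastrocnemius intervals of both genes overlap those of pure Myh2 nuclei.

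The other genes named above both groups were Bnip3, a receptor for mitophagy (316, 252 and 231 CPM in plantaris), Cobll1 (313, 262 and 134 CPM), Arl6ip5, Tia1, Arl15, Slco3a1, Slk, Huwe1 and Ptgr2. Those named below both were Trim7, which binds glycogenin (145, 205 and 206 CPM in plantaris), Acbd6, Wdr44, Gtf2h1, Sp4, Vcp, Tbc1d15, Ptcd3 and Epc2. Both sets were chosen by these same values, and the part of counting error in them was not tested. In gastrocnemius hybrid nuclei Acbd6 gave 0 UMIs, and its log2 ratio to pure Myh1 turned sign with a minimum of 20 Myh UMIs and with thinned nuclei.

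By size of ratio, hybrid nuclei of plantaris and gastrocnemius were furthest apart in Irs2, which lay in the same direction in the pure nuclei. Of 5341 genes, 15.5% were 2-fold or more higher in plantaris hybrid nuclei and 6.18% lower than in those of gastrocnemius. These genes needed 20 UMIs in either muscle, and 898 of them had 20 or more in gastrocnemius hybrid nuclei. The depths were 1051379 UMIs in plantaris and 101058 in gastrocnemius, so most of these ratios rest on few gastrocnemius UMIs. How much of these shares is counting error was not tested. Irs2, an insulin receptor substrate, gave 561 UMIs (534 CPM) in plantaris and 4 (39.6 CPM) in gastrocnemius hybrid nuclei, a log2 ratio of 3.75 (2.39 to 5.63), and the ratio was 2.97 in pure Myh2 and 3.36 in pure Myh1 nuclei. Nr4a3 gave 214 and 2 UMIs (3.36, 1.49 to 6.42). Pcp4l1 was the 1 named gene lower in plantaris, with 23 UMIs (21.9 CPM) against 25 (247 CPM), a log2 ratio of -3.50 (-4.38 to -2.62), at -2.60 in pure Myh2 nuclei and -3.41 in pure Myh1 nuclei. The other 7 genes named by size of ratio, Bicc1, Ror1, Stip1, Fnbp1, Naaladl2, Rbms2 and Rc3h2, had 1 UMI each in gastrocnemius. In these ratios a gene with no gastrocnemius UMIs is counted as 3, while a count of 1 is kept. A gene absent from gastrocnemius hybrid nuclei thus ranks below one with 1 UMI at the same plantaris level. The 7 therefore cannot be read as the genes furthest apart between the muscles. Of the 7, Bicc1 and Naaladl2 turned sign with a minimum of 20 Myh UMIs, and Ror1, Stip1, Fnbp1 and Rbms2 with thinned nuclei. A gene that loses its 1 UMI under an alternative is counted as 3, which can by itself turn the sign.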

How the data were processed

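Single-nucleus RNA was measured in 1 library each of plantaris and gastrocnemius. The authors deposited counts: whole numbers of UMIs per gene and nucleus, with a table giving the library of each barcode. Per the submitters' processing notes, Cell Ranger 6.0.1 and build mm10 were used. Per the labels' protocols, nuclei were stained, sorted and made into 10x libraries. The annotation, the counting of introns and strand, the handling of reads shared by the similar Myh genes, and the calling of nuclei were not given in the sources used here.

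Counts of a group's nuclei were added up and given as CPM, with exact Poisson intervals. Shares carry Clopper-Pearson intervals and ratios exact conditional binomial intervals, all at 95%. They cover counting error only, and nuclei are not replicates. A count of 0 was set to 3 counts in ratios. Ratios need 20 UMIs in the higher group. Background nuclei had 5 or more UMIs of other cell types' markers, under 20 of Ttn, Neb, Ckm and Ryr1, and under 10 Myh UMIs. The choice of genes that differ between the pure groups and the median position were tested on simulated data. The simulated differences were larger than the 4-fold minimum, and the other steps were not simulated.

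Genes were named by rule. The 12 in each direction had the largest smaller ratio of pure Myh2 to pure Myh1 over both libraries. Up to 10 in each direction lay outside both pure groups in both. The 10 named between muscles had the largest ratios in either direction. Members of the muscle lists were named as well. The members and lists were chosen with earlier results of these data known. Scrublet in scanpy 1.11.5 marked 2 nuclei in each library (0.0218% and 0.0271%), below 0.5%, so the caller was judged not to have worked and doublets were kept. Other software was Python 3.11.15, numpy 2.4.6, scipy 1.17.1, pandas 2.3.3 and matplotlib 3.10.9. Gene positions are from GENCODE M21. Alternatives covered the Myh minimum, the Myh shares, junction and high-UMI nuclei, doublet scores, gene choice, scaling and thinning.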

Additional observations from a re-analysis of the deposited data

Results flagged for a closer look

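Several values lay on opposite sides in the muscles. With 1 library per muscle, the difference between the muscles was not tested for any of them.

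The median UMI total of hybrid nuclei was 0.952 times that of pure Myh2 nuclei in plantaris and 1.035 times in gastrocnemius. Against pure Myh1 nuclei the ratios were 0.901 in plantaris and 1.086 in gastrocnemius.

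The slow sarcomere genes had a median log2 ratio of hybrid to pure Myh1 nuclei of 1.40 in plantaris, over 8 genes, and of -0.25 in gastrocnemius, over 4 genes. Myl2 and Csrp3, 2-fold higher in plantaris, gave 0 UMIs in gastrocnemius hybrid nuclei and were not among those 4. Ankrd2 stood at 239 CPM in hybrid, 258 in pure Myh2 and 46.7 in pure Myh1 nuclei of plantaris, and at 653, 864 and 764 CPM in gastrocnemius.

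Medians of the other lists lay near 0 on both sides. Oxidative regulators stood at -0.012 in plantaris and 0.040 in gastrocnemius against pure Myh2, and at 0.22 and -0.017 against pure Myh1. The citrate cycle and respiratory chain stood at 0.012 and -0.17 against pure Myh2, and at 0.087 and -0.11 against pure Myh1. Glycolysis, glycogen and lactate genes stood at -0.061 and 0.003 against pure Myh2. Fibre-type regulators stood at -0.05 and 0.087 against pure Myh2.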

How the results depend on the processing

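No paired analysis was possible because each muscle has 1 library and no label ties mice across them, so no library could be left out either. Gastrocnemius values rest on 29 hybrid nuclei and single genes there on few UMIs. The median position in plantaris ran from 0.663 to 1.21 over the alternatives, and the sums of the higher and of the lower genes from 0.95 to 1.395 and from 0.738 to 0.960. In gastrocnemius these sums ran from 0.0961 to 0.746 and from 0.520 to 0.890. Of 159 alternative values of the main quantities, 116 kept within the limit set for a move, and the others follow. The cause of each move was not tested. Alternatives that changed the pure nuclei, their counts or the gene rule chose the genes anew. Pure nuclei were scored by the main rule alone, so scores under those alternatives are not on the main scale.

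Stricter rules on nuclei left fewer hybrid nuclei. With a minimum of 20 Myh UMIs there were 98 in plantaris and 13 in gastrocnemius, the plantaris score median was 72.0%, and the gastrocnemius sums of higher and lower genes stood at 0.318 and 0.653. With a minimum of 30 there were 31 and 5. In plantaris the UMI ratio to pure Myh2 was then 1.06, the median position 1.21, the sums 1.395 and 0.829 and the score 72.4%, and in gastrocnemius the sums were 0.237 and 0.520. With hybrid nuclei at 30% or more of each gene and pure nuclei at 90% or more, there were 145 and 13. In plantaris the UMI ratio to pure Myh2 was 1.045, the median position 1.10 and the sums 1.215 and 0.960. In gastrocnemius the sums were 0.0961 and 0.548 and the score 26.3%. With Myh4 under 5% there were 164 and 18, the plantaris score was 76.2% and the gastrocnemius lower sum 0.820.

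Leaving out nuclei moved other values. Without the highest doublet scores the plantaris lower sum was 0.929, and without hybrid nuclei of high UMI totals 0.932. Without nuclei with junction markers the plantaris score was 52.4% and the gastrocnemius lower sum 0.890. The log2 ratio of Lama2 then turned to 0.53 against pure Myh1 in plantaris and to -1.08 against pure Myh2 in gastrocnemius.

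The choice of genes mattered as well. Genes chosen in the same library gave plantaris a median position of 0.663, sums of 0.964 and 0.738 and a score of 56.25%. Genes with 5 or more UMIs gave 0.740, 1.15 and 0.777, and genes with 50 or more UMIs sums of 0.95 and 0.937. A 2-fold difference gave a gastrocnemius higher sum of 0.746. Averaging CPM over nuclei gave a plantaris lower sum of 0.942, and thinning to 1000 UMIs a higher sum of 0.958.

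Single genes on few UMIs turned sign. With a minimum of 20 Myh UMIs, Lama2 against pure Myh2 (-0.83) and Acbd6 against pure Myh1 (0.060) did so in gastrocnemius, and Bicc1 (-0.42) and Naaladl2 (-1.42) between the muscles. Without hybrid nuclei of high UMI totals, Asb4 against pure Myh2 did so in gastrocnemius (-0.27). With thinned nuclei, gastrocnemius values turned for Gm5427 (0.575) and Asb4 (-0.69) against pure Myh2 and for Cd55 (0.61), Gpt2 (0.13) and Acbd6 (0.94) against pure Myh1. Between the muscles they turned for Ror1 (-0.53), Stip1 (-0.38), Fnbp1 (-0.38) and Rbms2 (-0.12).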

Other observations

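In plantaris alone, 33 of 5341 genes (0.618%) stood 2-fold or more above both pure groups in hybrid nuclei, and 55 of 6656 (0.826%) stood 2-fold or more below both. Among the 33, chosen for mention after their values were seen, were Gbp6, a guanylate-binding protein (81, 25 and 27 UMIs in hybrid, pure Myh2 and pure Myh1 nuclei, or 77.0, 34.6 and 15.4 CPM), Kirrel3, a cell adhesion protein (38, 4 and 12 UMIs), and Rtl4, a gene derived from a retrotransposon (68, 11 and 46 UMIs). In gastrocnemius hybrid, pure Myh2 and pure Myh1 nuclei Gbp6 gave 13, 23 and 2 UMIs, Kirrel3 0, 1 and 0, and Rtl4 1, 1 and 17.

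Markers of mesenchymal progenitors (Pdgfra, Dcn, Col1a1, Col3a1) stood at 131 CPM (110 to 155) in hybrid, 60.9 (44.3 to 81.8) in pure Myh2 and 103 (88.1 to 119) in pure Myh1 nuclei of plantaris. Abca8a, a lipid transporter, also chosen after its values were seen, stood at 104, 45.7 and 43.9 CPM in the same groups, and at 2, 12 and 18 UMIs in gastrocnemius. The part of other cells' RNA in these values was not tested. In gastrocnemius, 20.7% (7.99 to 39.7) of hybrid nuclei held 2 or more UMIs of neuromuscular junction markers, against 41.7% (30.2 to 53.9) of pure Myh2 and 14.5% (7.45 to 24.4) of pure Myh1 nuclei.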
